A study of Mus musculus with 6 samples.

Results

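Chemokines and their receptors were examined in the small intestine of mice, in 3 libraries labelled control and 3 labelled model. The genes were taken by symbol from the deposited count table: those beginning Ccl, Ccr, Cxcl, Cxcr, Xcl, Xcr or Ackr and a digit, those beginning Cx3c, and Ccrl2, provided that the 6 counts summed to 30 or more. This gave 41 genes of the 33017 in the table, namely 24 ligands, 13 receptors that signal through G proteins and 4 atypical receptors. A further 21 genes had a matching symbol but too few counts, and 14 of these were listed at 0 in every library. Just inside the limit lay Cxcl1 with a sum of 32 and Ccl1 with 41, and just outside it Cxcl2 with 28 and Cxcr2 with 22.

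Chemokines are small secreted proteins that direct the migration of leukocytes, and they are classed as CC, CXC, CX3C and XC by the spacing of their first cysteines. They act on receptors that span the membrane and couple to inhibitory G proteins, whereas atypical receptors bind chemokines without this coupling and remove or redistribute them. In the gut, epithelial chemokines such as CCL25 and CCL28 guide lymphocytes and plasma cells into the mucosa, CXCL13 with its receptor CXCR5 organises B cell follicles, and inflammatory chemokines recruit monocytes, neutrophils and effector T cells.

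The title of the series names simulated microgravity combined with radiation, an immune disorder of the gut and a compound, CB001, and its design text speaks of intestines of both groups and of the effects of a dual factor. None of the 6 libraries is labelled with the compound. The labels give tissue and group only, and the sources used here state no dose, duration, strain, sex or age. Nothing in the labels ties each library to its own animal, so the p-values rest on the spread among libraries and part of that spread may be technical. Poly-A RNA of frozen tissue was sequenced to library totals between 35007515 and 45285564 counts. Levels are given as CPM, the counts of a gene relative to the scaled total of its library, and fold changes are model against control on the log2 scale with their standard error (SE).

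Of the 6 enterocyte markers, Vil1 (1810.2 to 2389 CPM) and Epcam (1208 to 2151 CPM) were high in every library. Alpi was at 276 CPM in control 3 and between 2981 and 7417 CPM in the other libraries, and Fabp2 was listed at 0 throughout. The libraries were not alike in content. Control 3 stood apart by ileal genes, with a distal marker sum of 2338 CPM against 55.3 to 146 CPM elsewhere, and by a proximal marker sum of 236 CPM against 1573 to 2756 CPM. Model 3 stood apart by pancreatic enzyme transcripts, with a marker sum of 4696 CPM against at most 10.1 CPM. Control 3 and model 3 shared high B cell markers, with sums of 383 and 236 CPM against 18.9 to 59.4 CPM in the other 4 libraries. Whether these differences took part in the results below was not tested.

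Of the 41 genes, 38 had enough counts to be tested, and the test called none of them (edgeR's quasi-likelihood test with Benjamini-Hochberg adjustment over 15904 genes, smallest adjusted p = 0.851). The background was the same, with 0% of all genes called. At an unadjusted p under 0.05 there were 2 of the 38, Cxcl16 and Ccl7, or 5.26%, beside 4.81% of all genes. DESeq2, which gave no p for Cxcr5, and limma-voom also called 0 of the 38. Over the whole table DESeq2 called 25 genes and limma-voom 0. Each had 3 of the 38 at an unadjusted p under 0.05, beside 6.48% of all genes with DESeq2 and 4.12% with limma-voom. In 4 of the 38 (10.5%) the groups did not overlap, beside 11.1% of all genes. All 4 were higher in model tissue, the direction in which 4.73% of all genes did not overlap, while 6.33% were lower without overlap. The count of such genes is near its background. It was 2 of 38 when libraries were scaled by size alone, and the share over all genes is not given for that setting.

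Values were more often higher than lower in the model libraries, in 24 of 38 genes, beside 48.2% of all genes tested. The median log2 fold change was 0.29, against -0.018 for all genes. Ligands had a median of 0.41, with 17 of 22 higher, and receptors one of -0.19, with 5 of 12 higher. The median of the family moved when single libraries were left out and the count filter was applied anew. It was 0.05 without control 2 (40 genes) and 0.07 without model 2 (39 genes). When only library size was used for scaling, the median of all genes moved to -0.212. That of the 38 genes moved to 0.11, with 21 higher. The distance between both medians was then 0.32, against 0.31 in the reported fit. This distance was 0.07 without control 2, 0.11 without model 2 and 0.15 for genes with at least 1 CPM in 3 libraries. The ligand median was 0.18 without control 2, 0.23 with scaling by library size alone, 0.28 for genes with at least 1 CPM in 3 libraries and 0.62 with limma-voom. The receptor median turned its sign to 0.51 without control 3, 0.14 without model 1, 0.23 without control 3 and model 3 together, and 0.03 with limma-voom.

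**Figure D1:**
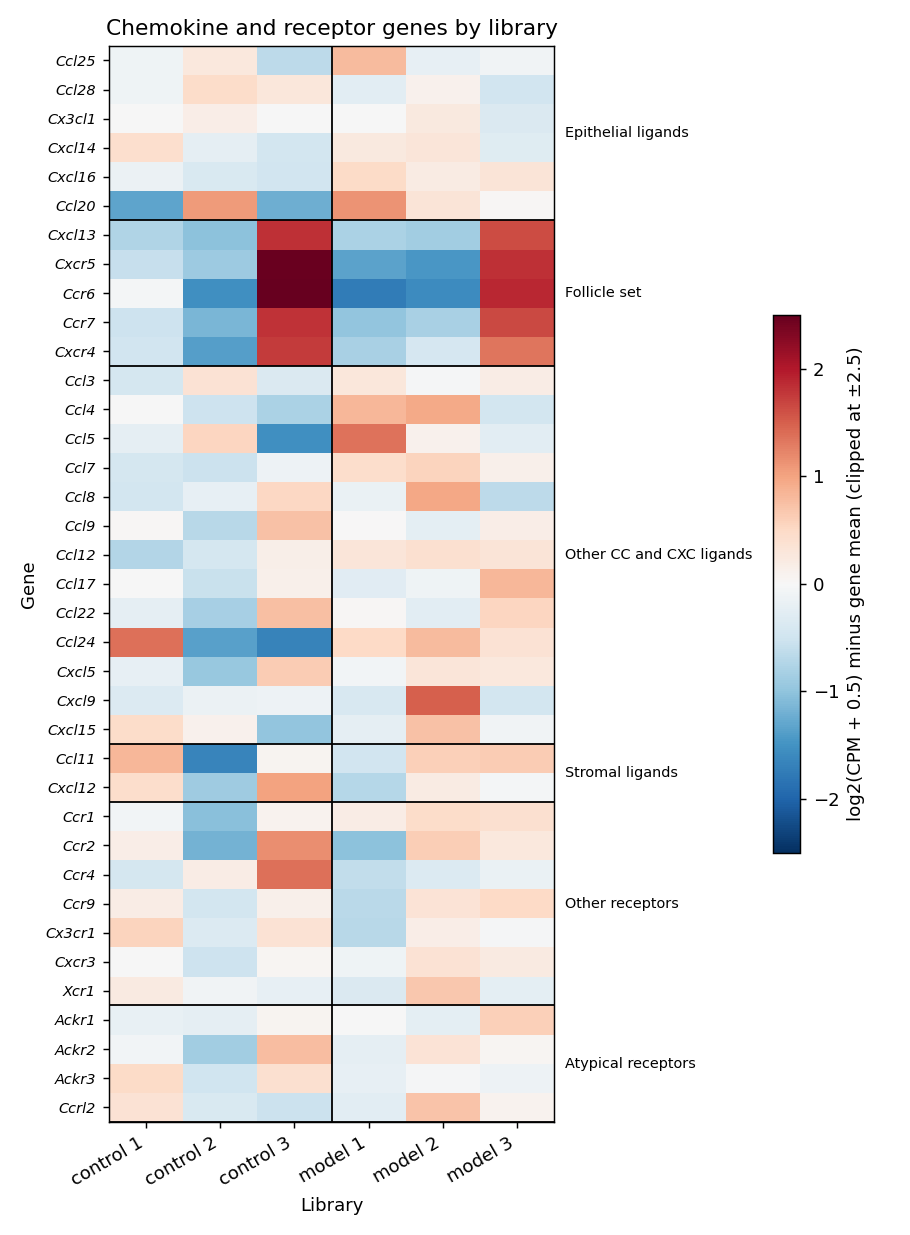
Level of 37 tested genes in each library, as log2(CPM + 0.5) minus the mean of the gene over the 6 libraries; red is above and blue below that mean, columns are libraries and rows are genes grouped by role. The follicle set, grouped after its values were seen, is high in control 3 and model 3 and low in the other 4 libraries.

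**Figure D2:**
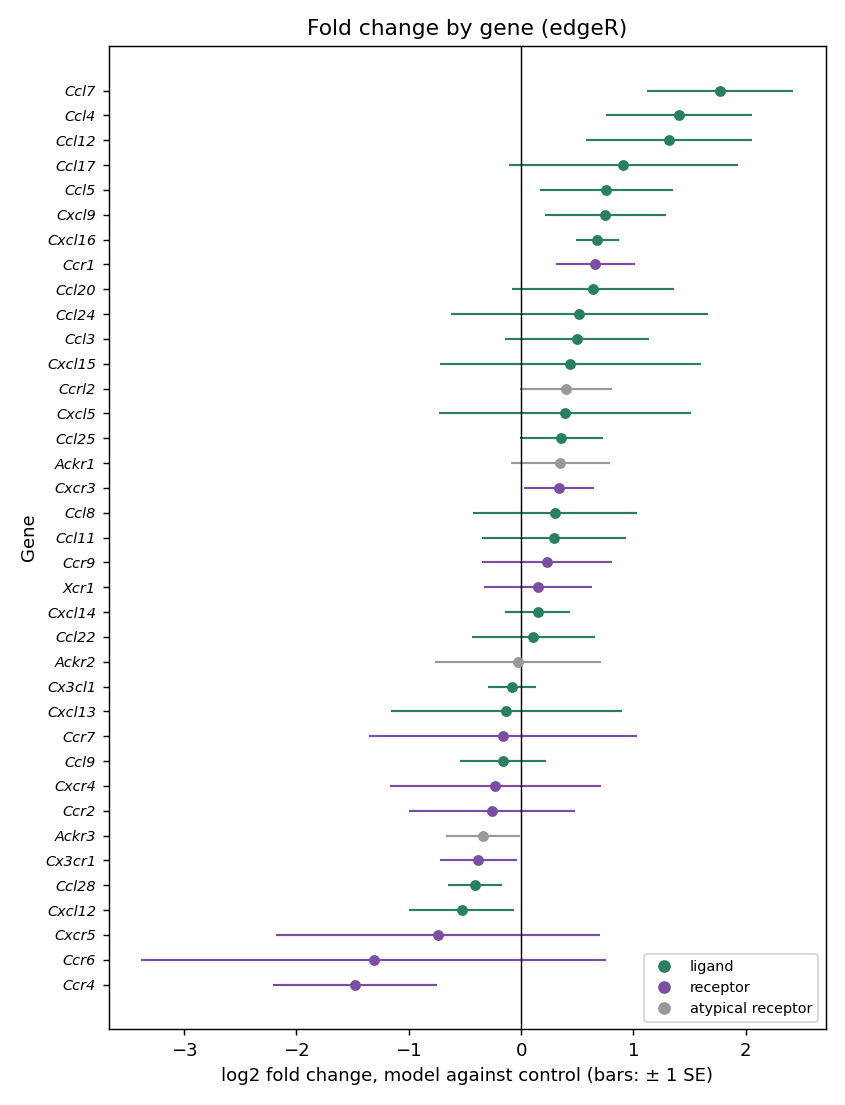
Log2 fold change of model against control for 37 tested genes (points) with 1 SE to each side (bars), coloured by role. Cxcl16 has one of the shortest bars, at 0.68 with an SE of 0.19, while the bar of Ccr6, at -1.31 with an SE of 2.07, spans 0.

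Promoters were searched because Cxcl9 and Ccl20 are known targets of NF-kB, the transcription factor of inflammatory signalling, and Cxcl9 also of interferon. The search covered the 250 bases before the gene start on both strands, in RefSeq promoters of GRCm38.p6, for an NF-kB type string (GGNNTTTCC) and an interferon response type string (GAAANNGAA). Of the 41 genes, 31 had a promoter sequence, and Cxcl16, Ccl7, Ccl4 and Ccl5 were among those without one. The NF-kB type string occurred in 6 of the 31 (Ccl20, Ccl9, Ccr3, Ccrl2, Cxcl1 and Cxcl9), or 19.4%, beside 5.62% of 27025 genes with a promoter. Ccrl2 has several promoters and was counted although not all of them held the string. The interferon type string occurred in 5 of the 31 (Ccl1, Ccl3, Ccr2, Cxcl14 and Cxcl9), or 16.1%, beside 8.18%. A match describes the letters only and shows no binding. Cxcl9 was the only gene of the 31 with both strings. Its NF-kB type matches begin at -130 and -42 and its interferon type match at -175, counted back from the gene start (chr5:92328080-92328329, minus strand). The match in Ccl20 begins at -80 and is on the opposite strand (chr1:83116516-83116765, plus strand). The promoter of Cxcl13 (chr5:95956689-95956938, plus strand) held neither string. All 3 are shown 5′ to 3′ with the matches in capitals. Cxcl9 and Ccl20 are shown as ligands of inflammation whose fold changes moved with the libraries used. Cxcl13 is shown as the ligand of the follicle set described below.
Cxcl9: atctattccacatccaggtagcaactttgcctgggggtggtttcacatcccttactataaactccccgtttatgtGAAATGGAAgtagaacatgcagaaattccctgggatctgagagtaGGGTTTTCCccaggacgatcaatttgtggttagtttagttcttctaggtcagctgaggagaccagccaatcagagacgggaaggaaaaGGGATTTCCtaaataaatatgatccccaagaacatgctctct
Ccl20: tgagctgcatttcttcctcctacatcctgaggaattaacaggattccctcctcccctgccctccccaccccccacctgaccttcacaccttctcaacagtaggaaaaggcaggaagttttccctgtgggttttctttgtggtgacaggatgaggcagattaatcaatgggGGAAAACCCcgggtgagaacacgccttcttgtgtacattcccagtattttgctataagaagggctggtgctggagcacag
Cxcl13: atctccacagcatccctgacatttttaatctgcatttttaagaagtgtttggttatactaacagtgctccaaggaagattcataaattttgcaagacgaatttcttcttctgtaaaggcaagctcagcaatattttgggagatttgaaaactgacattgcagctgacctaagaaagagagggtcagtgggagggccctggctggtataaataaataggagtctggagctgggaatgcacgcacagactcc

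Ligand genes held between 83.7% and 95.9% of the summed CPM of the family in the 6 libraries. The ligand Ccl25, which draws T cells and plasma cell precursors with the receptor CCR9 to the small intestine, alone held between 30.1% and 53.3% of it. Per kilobase of its longest coding transcript its mean level was 352 CPM, followed by Ccl5 with 139.9 and Cx3cl1 with 31.1. When the length of all annotated exons was used instead, Ccl5 came first with 77.5 CPM per kilobase and Ccl25 second with 50.0. Ccl25 was at 328, 425 and 223 CPM in control 1, 2 and 3 and at 615, 307 and 333 CPM in model 1, 2 and 3. Model 1 was the highest and control 3 the lowest library, and the groups overlapped. The log2 fold change was 0.36 (SE 0.37). It was -0.03 without model 1, 0.17 without control 3 and 0.62 without control 2, and 0.15 with scaling by library size alone. Control 3 and model 1 were also the lowest and the highest library for the summed proximal markers (236 and 2756 CPM), and whether position along the intestine took part was not tested. Its receptor gene Ccr9 was at 1.29, 0.641 and 1.21 CPM in control and at 0.485, 1.5 and 1.71 CPM in model tissue, with overlap of the groups and a log2 fold change of 0.23 (SE 0.58). In the GENCODE M21 annotation of GRCm38 21.5% of the exon bases of Ccr9 are shared with other genes, so that its value is uncertain.

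Cxcl16 had the smallest p of the family, although it did not pass the test. CXCL16 is made as a membrane protein, which can be shed, by epithelial and antigen-presenting cells, and attracts T cells and natural killer T cells through CXCR6. It measured 25.2, 21.1 and 19.7 CPM in the control libraries and 39.1, 32.0 and 34.9 CPM in the model libraries. Each model library lay above each control library. The control mean was 22.0 ± 2.82 CPM and the model mean 35.3 ± 3.56 CPM (SD, n = 3 each). The log2 fold change was 0.68 (SE 0.19, unadjusted p = 0.008, edgeR's adjusted p = 0.851). It stayed between 0.60 and 0.80 when 1 library was left out, and was 0.62 without control 3 and model 3 together, where the unadjusted p was 0.057. With libraries scaled by size alone it was 0.48. The adjusted p lay between 0.284 (DESeq2) and 1.0 over all alternatives. In GENCODE M21, 552 of 3021 exon bases of Cxcl16 overlap Zmynd15, a gene of the opposite strand. Zmynd15 itself measured 10.8, 4.97 and 8.5 CPM in control and 5.37, 12.9 and 7.55 CPM in model tissue, with a log2 fold change of 0.09 (SE 0.42). The gene of its receptor, Cxcr6, was listed at 0 in all 6 libraries.

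**Figure D3:**
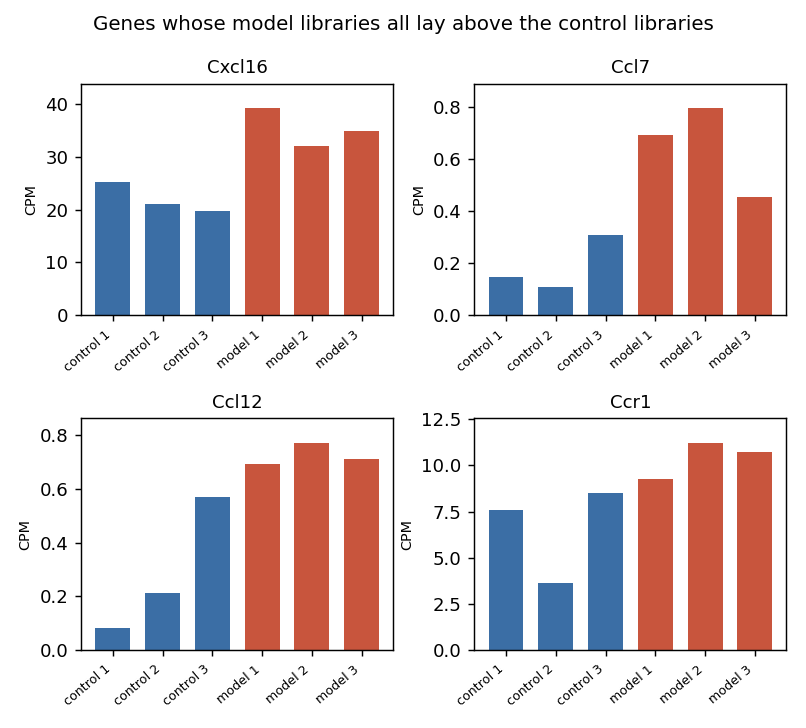
CPM in each library (bars; blue control, red model) of the 4 tested genes whose model libraries all lay above the control libraries. Cxcl16 spans 19.7 to 39.1 CPM, while Ccl7 and Ccl12 stay below 1 CPM in every library.

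Among the other epithelial ligands, Ccl28, which attracts IgA-producing plasma cells through CCR10, was at 86.4, 128 and 113 CPM in control and at 77.2, 101 and 67.0 CPM in model tissue. Only model 2 reached into the control range, and the log2 fold change was -0.41 (SE 0.24), or between -0.59 and -0.27 when 1 library was left out. Its receptor gene Ccr10 was listed at 0 throughout. The summed plasma cell markers, with Mzb1 listed at 0, ranged from 6633 to 9337 CPM in control and from 7297 to 11951 CPM in model tissue. Most of each sum was Igha, with 7926 of the 9337 CPM in control 1 and 10166 of the 11951 CPM in model 1.

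Cx3cl1 encodes fractalkine, a membrane-bound chemokine that holds CX3CR1-bearing macrophages at the epithelium and vessel wall. It was at 101, 115 and 101 CPM in control and at 101, 120.5 and 79.4 CPM in model tissue, and model 3 was the lowest library. The log2 fold change was -0.08 (SE 0.21), and it was 0.01 without control 2 and 0.07 without model 3. Cx3cr1 was at 17.9, 9.38 and 15.6 CPM in control and at 7.27, 13.6 and 11.9 CPM in model tissue, with a log2 fold change of -0.38 (SE 0.34) and overlapping groups. Without 1 library it lay between -0.60 (control 2) and -0.16 (model 1), with -0.18 without control 1. Cxcl14, a chemokine with antimicrobial activity, was at 45.8, 29.1 and 24.5 CPM in control and at 40.3, 42.1 and 27.6 CPM in model tissue, with an overlap between groups (log2 fold change 0.15, SE 0.29).

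Ccl20 attracts CCR6-bearing B cells, T cells and dendritic cells, and is known from the epithelium that covers lymphoid follicles. It varied more within than between groups: 3.00, 17.7 and 3.25 CPM in control and 18.5, 10.4 and 8.35 CPM in model tissue. Control 2 alone lay among the model values. The log2 fold change was 0.64 (SE 0.72). It was 0.25 without control 1, 0.28 without control 3 and 0.23 without model 1. It was 2.01 without control 2, where the unadjusted p was 0.0024 and edgeR's adjusted p = 0.735 (0.735 to 1.0 over all alternatives). Control 3, the library with the most Ccr6 reads, was among the lowest for Ccl20.

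**Figure D4:**
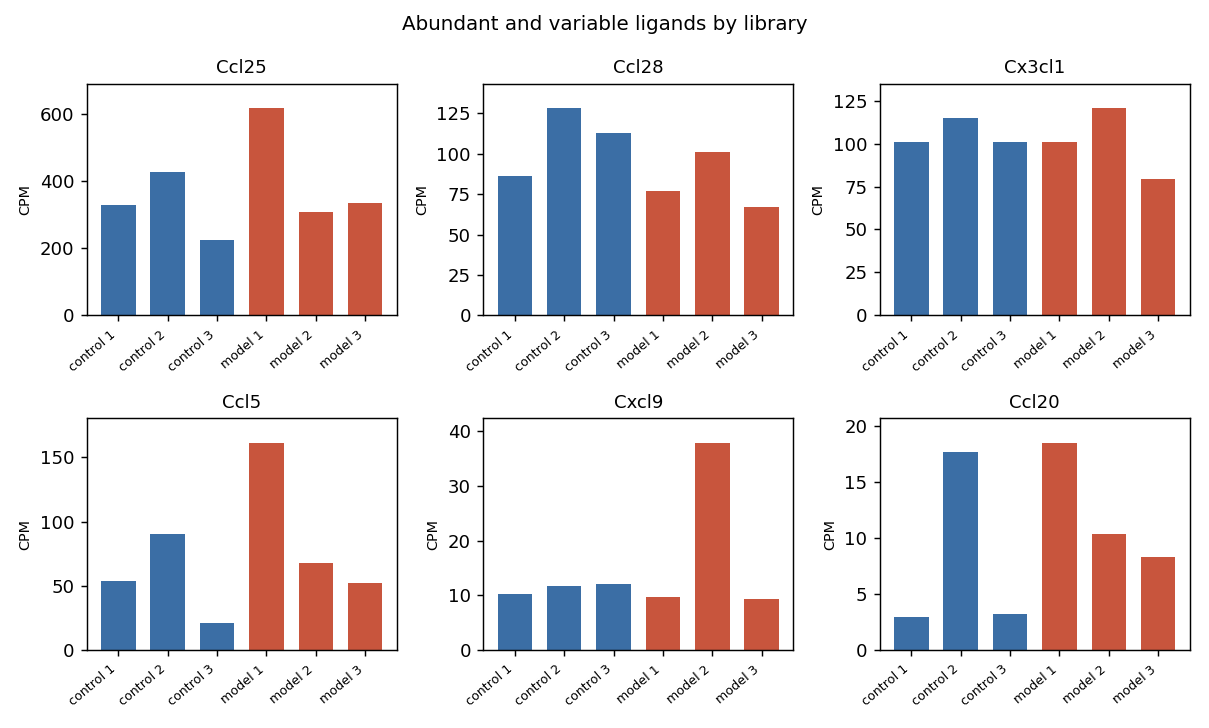
CPM in each library (bars; blue control, red model) of 6 ligand genes, each panel on its own scale from 0. Model 1 is the highest library for Ccl25 (615 CPM) and Ccl5 (161 CPM) and model 2 for Cxcl9 (37.8 CPM), while Ccl20 is low in control 1 and control 3.

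A set of 5 genes, called the follicle set here and grouped after their values were seen, set control 3 and model 3 apart from the other libraries and did not separate the groups. Cxcl13, the ligand that gathers B cells into follicles, was at 2.82, 2.27 and 19.4 CPM in control and at 2.73, 2.56 and 17.0 CPM in model tissue. Its receptor gene Cxcr5 was at 1.17, 0.828 and 13.3 CPM and at 0.485, 0.408 and 8.29 CPM. Ccr6, the receptor for CCL20, was at 1.13, 0.0802 and 13.3 CPM in control and at 0, 0.068 and 5.76 CPM in model tissue. All 3 genes were high in control 3 and model 3 and low in the other libraries. Ccr7, which brings naive lymphocytes and mature dendritic cells into lymphoid tissue, was at 1.06, 0.508 and 7.27 CPM in control and at 0.623, 0.771 and 6.5 CPM in model tissue. Cxcr4, the receptor for CXCL12 on most leukocytes, was at 3.98, 1.90 and 20.5 CPM in control and at 3.08, 4.17 and 15.3 CPM in model tissue. The lower of control 3 and model 3 thus exceeded the highest other library between 3.67-fold for Cxcr4 and 7.10-fold for Cxcr5.

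The same libraries held the B cell marker sums given above (383 and 236 CPM), to which 11 of the 12 markers contributed, since Ms4a1 was listed at 0. In bulk tissue more cells of a type and more RNA per cell cannot be told apart, and whether the tissue pieces held lymphoid follicles was not tested. Between the groups the log2 fold changes were -0.74 (SE 1.44) for Cxcr5 and -1.31 (SE 2.07) for Ccr6. Without control 3 they were 1.62 and 1.67, and without model 3 they were -3.51 and -6.83, so that the sign followed which of the high libraries was left out. Without both, Cxcr5 had a log2 fold change of -1.16 (SE 0.72) with groups that did not overlap, and Ccr6 did not pass the count filter. The values without model 3 rest on model 1 and model 2, which held 0 and 3 counts of Ccr6. Cxcl13 (-0.13, SE 1.03), Ccr7 (-0.16, SE 1.19) and Cxcr4 (-0.23, SE 0.94) had fold changes nearer to 0.

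**Figure D5:**
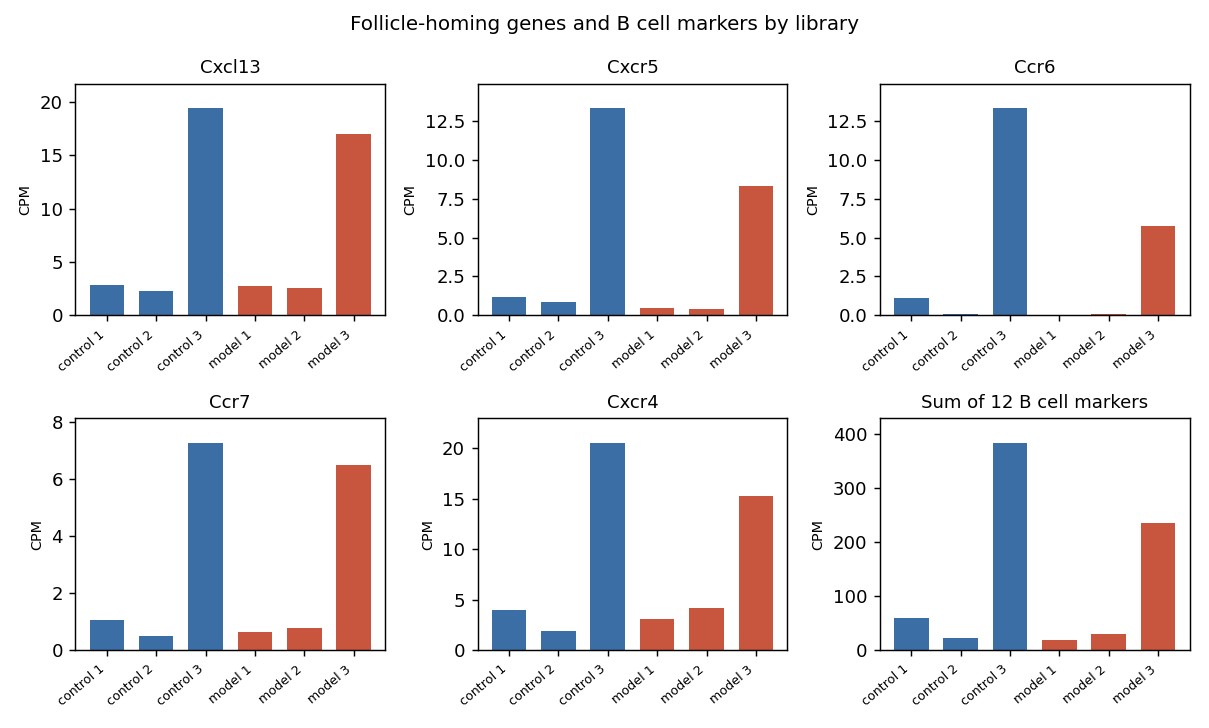
CPM in each library (bars, blue control and red model) of the 5 genes of the follicle set and of the sum of 12 B cell markers. Each panel is on its own scale from 0. Control 3 and model 3 are high in all 6 panels; Cxcl13 is at 19.4 and 17.0 CPM there and at most 2.82 CPM elsewhere.

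Ccl7 and Ccl12, ligands of the monocyte receptor CCR2, had low levels and positive fold changes. Ccl7, which also acts on other receptors, was at 0.146, 0.107 and 0.309 CPM in control and at 0.692, 0.794 and 0.456 CPM in model tissue, from 4 to 35 counts per library. The groups did not overlap, and the log2 fold change was 1.77 (SE 0.65, unadjusted p = 0.028, edgeR's adjusted p = 0.851). Ccl12, a monocyte chemoattractant of the mouse, was at 0.0834, 0.214 and 0.570 CPM in control and at 0.692, 0.771 and 0.712 CPM in model tissue. Its groups did not overlap either, with a log2 fold change of 1.32 (SE 0.74) that was 0.89 without control 1 and 2.30 without control 3. With libraries scaled by size alone the groups of Ccl12 overlapped. Ccl8, whose product acts on CCR8 in the mouse, was at 0.563, 0.775 and 1.59 CPM in control and at 0.796, 2.36 and 0.427 CPM in model tissue, with an overlap between groups (log2 fold change 0.30, SE 0.73). Ccl2, the main CCR2 ligand, was listed at 0 in every library. Ccr2 itself was at 3.50, 1.07 and 7.41 CPM in control and at 1.25, 4.92 and 3.79 CPM in model tissue, and the groups overlapped (log2 fold change -0.26, SE 0.74).

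Low counts limit these values. Of the genes with 1 to 20 counts in a library, 60.8% to 67.2% had an even count, and the sources used here do not state whether both reads of a fragment were counted. How many fragments stand behind the 4 counts of Ccl7 in control 2 is therefore not known.

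Ccr1, a receptor of monocytes and neutrophils for CCL3, CCL5 and related ligands, was at 7.59, 3.63 and 8.5 CPM in control and at 9.24, 11.2 and 10.7 CPM in model tissue. The groups did not overlap, with a log2 fold change of 0.66 (SE 0.35, edgeR's adjusted p = 0.851) that was 0.39 without control 2. They overlapped with upper quartile scaling and with scaling by library size alone. Ccl4, a ligand known from activated macrophages and lymphocytes, was at 1.04, 0.588 and 0.404 CPM in control and at 2.28, 2.52 and 0.627 CPM in model tissue. Model 3 lay within the control range, and the log2 fold change was 1.41 (SE 0.65). Ccl3, its neighbour in function, ranged from 0.250 to 0.802 CPM with overlapping groups. The summed macrophage markers, with Itgam listed at 0, ranged from 123 to 274 CPM in control and from 203 to 249.9 CPM in model tissue, and those of neutrophils from 4.97 to 29.5 CPM and from 21.3 to 42.8 CPM. Of the 8 neutrophil markers 2 were tested, Mmp9, with 23.9 of the 29.5 CPM in control 1 and 37.5 of the 42.8 CPM in model 2, and Csf3r. Their log2 fold changes were 1.29 (SE 0.68) and -0.20 (SE 0.51). The part of either cell type in these results was not tested.

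Ccl5, a ligand of CCR1 that activated and cytotoxic T cells secrete, was at 53.6, 90.6 and 21.4 CPM in control and at 161, 67.7 and 52.3 CPM in model tissue. Model 1 was the highest and control 3 the lowest library, the groups overlapped, and the log2 fold change was 0.76 (SE 0.59). It was 0.12 without model 1, 0.40 without control 3 and 1.34 without control 2. The summed markers of natural killer and innate lymphoid cells, which include the granzyme genes Gzma and Gzmb, had the same lowest and highest libraries, with 150 CPM in control 3 and 472 CPM in model 1. So did the summed enterocyte markers (5019.6 and 15726 CPM) and the summed proximal markers (236 and 2756 CPM). The summed T cell markers ranged from 118 to 133 CPM in control and from 156 to 183 CPM in model tissue, with 8 of 9 tested markers higher and none called. The part of any of these cell types, or of position along the intestine, in the level of Ccl5 was not tested.

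Of the interferon-induced ligands of CXCR3, only Cxcl9 could be described. Cxcl10 was listed at 0, which is not read as absence, and Cxcl11 was not among the matching symbols. Cxcl9 was at 10.2, 11.7 and 12 CPM in control, at 9.76 and 9.32 CPM in model 1 and 3, and at 37.8 CPM in model 2. A single library thus carried the difference: the log2 fold change was 0.75 (SE 0.54) and it was -0.24 without model 2. Model 2 also had the highest value of Cxcr3 (6.30 CPM), of Xcr1 (2.81 CPM), a receptor of cross-presenting dendritic cells, and of Ccl8 (2.36 CPM). Irf1, an interferon-induced transcription factor from the list of upstream cytokines and NF-kB genes, was highest there as well, at 301 CPM against 149 to 259 CPM. The 259 CPM of Irf1 were in model 1, where Cxcl9 was at 9.76 CPM. Whether interferon took part was not tested. Cxcr3, carried by effector T cells, was at 4.78, 3.18 and 4.99 CPM in control and at 4.40, 6.30 and 5.67 CPM in model tissue, with an overlap between groups (log2 fold change 0.34, SE 0.31, and 0.18 without control 2, 0.23 without model 2 and 0.14 with scaling by library size alone). Xcr1 was at 1.92, 1.44 and 1.28 CPM in control and at 1.11, 2.81 and 1.23 CPM in model tissue, while its ligand gene Xcl1 was listed at 0.

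Stromal ligands showed no separation of the groups. Cxcl12, which retains leukocytes and progenitors through CXCR4, was at 31.3, 12.2 and 46.2 CPM in control and at 13.7, 26.3 and 22.2 CPM in model tissue. Control 2 and model 1 were the lowest libraries, and they were also the lowest for the summed fibroblast markers (256 and 225 CPM against 380.1 to 901 CPM), a relation whose part was not tested. The log2 fold change was -0.53 (SE 0.47), -0.88 without control 2, -0.30 without model 1 and -0.05 without control 3. Ackr3, an atypical receptor that takes up CXCL12, was at 10.3, 4.94 and 9.67 CPM in control and at 6.16, 7.05 and 6.52 CPM in model tissue, all within the control range. Its log2 fold change was -0.34 (SE 0.33), with -0.14 without control 1, -0.20 without control 3 and -0.59 without control 2. Ccl11, the eotaxin that recruits eosinophils through CCR3, was at 13.9, 2.06 and 7.91 CPM in control and at 5.30, 11.7 and 12 CPM in model tissue, and the groups overlapped (log2 fold change 0.29, SE 0.64). The other eotaxin, Ccl24, was at 4.61 CPM in control 1, at 0.267 and 0.119 CPM in control 2 and 3, and at 2.28, 2.88 and 2.02 CPM in model tissue, all within the control range. Ccr3 was too low to be tested, with 55 of its 70 counts in control 1, where it had 1.15 CPM.

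Neutrophil-attracting ligands of CXCR2 were at the edge of detection. Cxcl5 ranged from 0 to 0.997 CPM, with overlapping groups. Cxcl1 was too low to be tested: it was at 0.125, 0 and 0.095 CPM in control and at 0.138, 0.227 and 0.228 CPM in model tissue, without overlap, from 32 counts in all libraries together. Cxcl15, known from lung, was at 0.855, 0.561 and 0 CPM in control and at 0.346, 1.13 and 0.427 CPM in model tissue. Its groups overlapped, with a log2 fold change of 0.44 (SE 1.16). Of the remaining genes, Ccr4, a receptor of helper and regulatory T cells, was at 0.459, 0.962 and 2.85 CPM in control and at 0.346, 0.522 and 0.655 CPM in model tissue. Control 3 was the highest library, the groups overlapped, and the log2 fold change of -1.48 (SE 0.73) was -0.46 without control 3. Of the CCR4 ligands, Ccl17 ranged from 0.0267 to 0.883 CPM, and Ccl22 was at 1.96, 1.10 and 4.30 CPM in control and at 2.42, 1.88 and 3.65 CPM in model tissue. Ccl9, a ligand of CCR1, was at 11.3, 6.60 and 18.6 CPM in control and at 11.1, 9.28 and 12.4 CPM in model tissue. Both sets of values overlapped, with control 3 the highest library. Ccl1, another ligand of CCR8, was too low to be tested.

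The atypical receptor genes overlapped between the groups. Ackr1, which binds many inflammatory chemokines on venules and red cells, was at 1.11, 1.07 and 1.42 CPM in control and at 1.32, 1.04 and 2.25 CPM in model tissue, and 25.7% of its exon bases are shared with Cadm3. Ackr2, which degrades inflammatory CC chemokines, was at 0.751, 0.214 and 1.73 CPM in control and at 0.623, 1.16 and 0.855 CPM in model tissue. Ccrl2, which binds chemerin, was at 5.90, 3.31 and 2.94 CPM in control and at 3.63, 7.64 and 4.79 CPM in model tissue, with a log2 fold change of 0.40 (SE 0.41). Model 2 was the highest library for Ccrl2 and model 3 for Ackr1.

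The 7 genes with some counts that fell short of the rule were Cxcl2, Cxcr2, Ccr8, Ccr1l1, Cxcl3, Ccl26 and Ccl27b, with 28 to 1 counts in all. The 14 genes listed at 0 in all libraries were Ackr4, Ccl2, Ccl6, Ccl19, Ccl19-ps3, Ccl21a, Ccl21b, Ccl21d, Ccr10, Cxcl10, Cxcl17, Cxcr1, Cxcr6 and Xcl1. These zeros were not read as absence, and no upper limit was drawn from them, because Fabp2, an abundant fatty acid carrier of enterocytes, was listed at 0 as well. The copies of Ccl19 and Ccl21 are nearly identical in sequence, and the sources used here do not state how reads with several matches were counted.

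Genes around the chemokine system, in 5 lists written with earlier results of these data known, had medians close to 0. Of 20 genes that carry the signal of chemokine receptors, such as G protein subunits and arrestins, 9 were higher and 11 lower, with a median log2 fold change of -0.04, and their summed level lay between 2875 and 3006 CPM in the 6 libraries. Its most abundant members were Plcb3 (log2 fold change -0.08, SE 0.24) and Gnb1 (0.15, SE 0.25). Of 11 homing adhesion and egress genes 5 were higher, with a median of -0.02. Fold changes were 0.23 (SE 0.31) for Itgae, the integrin gene of epithelial retention, and 0.13 (SE 0.51) for the leukocyte integrin gene Itgal. Lymphoid tissue genes had 4 of 9 tested members higher and a median of -0.10, with Ltbr at 0.28 (SE 0.30) and Relb at -0.14 (SE 0.28). Upstream cytokine and NF-kB genes had 7 of 9 higher and a median of 0.08, with Irf1 at 0.46 (SE 0.27) and Nfkb1 at 0.06 (SE 0.17). Chemokine-related genes outside the symbol rule had 3 of 8 higher and a median of -0.11. Dpp4, a brush border protease that trims chemokines, was at 425 CPM in control 3 and between 199.7 and 251 CPM in the other libraries, and Mif had a log2 fold change of 0.22 (SE 0.26). None of the 57 tested genes of these lists was called, and none had an unadjusted p under 0.05 in edgeR's test, beside 4.81% of all genes.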

How the data were processed

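Libraries from 6 mouse small intestine samples were made after poly-A selection, per the labels' protocols. The submitters' processing notes name FastQC, Trimmomatic, STAR, featureCounts and genome build GRCm39, without versions. The sources used here state no annotation, strand or multi-mapping setting. Raw counts per gene symbol were deposited in 1 table. Its 6 columns were matched to samples by library name, and 0 were left unmatched. Genes were kept with edgeR's filterByExpr (15904 of 33017, at least 99.6% of each library's counts), scaled by TMM and tested with the quasi-likelihood F test with robust dispersion, group as the only term (R 4.3.3, edgeR 4.0.16). A gene was called at an adjusted p under 0.05 (Benjamini-Hochberg, over all genes). The SE was derived from the fold change and the F value of the test. The procedure was tested on simulated data. Alternatives were other scalings, DESeq2 1.42.0, limma-voom (limma 3.58.1), other filters, a replicate block and leaving out libraries. Values per library are given for the 10 genes with the smallest p, for genes of ligand and receptor sets with at least 1 CPM in a library, and for the 5 ligands and 5 receptors with the highest mean. Of the pathway lists the 2 most abundant genes are named. Other genes are given by range. The values of 1 tested gene are not reported here, although the counts of genes include it. The members and lists were chosen with earlier results of these data known. Exon overlap and transcript lengths come from GENCODE M21 (GRCm38), matched for all 41 genes by symbol. Protein sequences were planned and were not used here.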

Additional observations from a re-analysis of the deposited data

How the results depend on the processing

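Over 16 alternatives, 0 chemokine or receptor genes were called in each. With DESeq2, Cxcr5 had no p and could not be called. The number of genes called over the whole table was 0 except with DESeq2, which called 25. The number of chemokine and receptor genes at an unadjusted p under 0.05 was 2 of 38 in the reported fit, beside 4.81% of all genes. It was 1 of 38 with scaling by library size alone, beside 6.11%. With a filter of at least 1 CPM in 3 libraries it was 1 of 29, beside 4.54%. Among genes with at least 1 CPM on average it was 1 of 30. It lay between 1 and 5 when 1 library was left out (1 of 40 without model 1 and 1 of 39 without model 2, beside 3.95% and 4.96% of all genes; 4 of 39, 4 of 40 and 4 of 38 without control 1, 2 and 3, beside 5.32%, 6.1% and 2.34%; 5 of 40 without model 3, beside 3.58%), and was 3 of 38 with DESeq2 and with limma-voom, beside 6.48% and 4.12%. The number whose groups did not overlap, 4 in the reported fit, was 2 under each of those 3 settings. It was 8 of 36 without control 3 and model 3 together, and between 5 and 10 when 1 library was left out. Without control 1, 2 and 3 it was 9 of 39, 10 of 40 and 5 of 38. Without model 1, 2 and 3 it was 6 of 40, 7 of 39 and 7 of 40. Groups of fewer libraries overlap less easily, and the share over all genes is given only for the reported fit (11.1%). These counts are therefore not read as a result about the family. The median log2 fold change lay between 0.048 and 0.434 when 1 library was left out, and was 0.141 with the filter of at least 1 CPM in 3 libraries and 0.107 with scaling by library size alone. Fold changes turned their sign for 5 of the 18 genes followed over the alternatives, each time through the choice of libraries: without 1 library the values ranged from -0.22 to 0.07 for Cx3cl1 (0.03 without control 3 and model 3), -0.03 to 0.62 for Ccl25, -0.24 to 1.08 for Cxcl9, -6.83 to 1.67 for Ccr6 and -3.51 to 1.62 for Cxcr5. The cause was not tested. No scaling, filter or test turned a sign among these 18. With the replicate number as a replicate block, 2 genes of the family had an unadjusted p under 0.05 (Cxcr5 at -0.97, SE 0.36, and Cxcl16), beside 3.38% of all genes, and 0 were called. The numbers share no stated origin, and same-numbered libraries correlated in their deviations at -0.153, -0.266 and 0.309, so they were not taken to pair the libraries. Ligands and receptors under about 1 CPM are limited by depth.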
